A study of Mus musculus with 4 samples.

Results

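The replication-dependent core histone genes of the mouse were followed through spermatogonia in which retinoic acid signalling was impaired. Members were all entries of the expression table with 1 gene symbol of the Hist1 to Hist4 families naming an H2A, H2B, H3 or H4 gene. This took 60 of 42907 symbols, with 18 H2A, 18 H2B, 11 H3 and 13 H4 genes. The study sequenced RNA in 4 libraries, 2 from control mice and 2 from mice labelled as germ cell RA signaling mutant, where RA is retinoic acid, the vitamin A metabolite that sets spermatogonial differentiation going. All mice were C57BL/6 at postnatal day 4, and the cells were THY1+ spermatogonia taken from testis with magnetic beads against CD90.2 (THY1), the surface protein by which stem and progenitor cells are enriched. The labels name neither the modified gene nor the driver that limits the change to germ cells, and they do not say whether animals were pooled or whether the libraries came from separate animals. The table holds 1 combined value for both libraries of a genotype, so the spread between libraries is unknown, and the text gives neither SD nor p-value.

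Core histones package DNA: a pair each of H2A, H2B, H3 and H4 forms the protein core of a nucleosome. Replication-dependent genes supply most of them during S phase, when new DNA has to be packaged, and they lie in clusters of short genes without introns. Their mRNAs usually end in a conserved stem-loop in place of a poly(A) tail. That stem-loop is bound by SLBP, the protein that carries these mRNAs through 3′ processing, export and translation. Testis has its own H2A and H2B genes of this family, Hist1h2aa (TH2A) and Hist1h2ba (TH2B), whose proteins replace much of the somatic forms during spermatogenesis. The labels give total RNA as the molecule and do not say whether poly(A) selection was used.

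The 3′ stem-loop is shown because it is what sets these mRNAs apart. A 16-base match was found in the annotated transcript of 36 members, in 6 forms, written here 5′ to 3′ with the 6 bases of each stem arm in capitals and the 4-base loop in lower case. Only annotated transcripts without introns were searched, with a fixed pattern. Some annotated transcripts, such as that of Hist1h2bl, end with the coding sequence, so a missing match does not mean that the gene lacks a stem-loop. The forms differ mainly by histone class.
H2A, H2B and H3 form: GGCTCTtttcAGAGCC
H2B and H3 form: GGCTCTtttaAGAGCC
Hist2h2ac form: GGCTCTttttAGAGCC
main H4 form: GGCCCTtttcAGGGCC
Hist1h4i and Hist2h4 form: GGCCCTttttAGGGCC
Hist1h4b and Hist1h4j form: GGTCCTtttcAGGACC
The first of these was the most frequent, in 8 H2A, 7 H2B and 4 H3 genes. In Hist1h2bh, for example, it lies at chr13:23542928-23542943 on the minus strand of GRCm38. The main H4 form was found in 7 H4 genes, among them Hist1h4d at chr13:23581950-23581965 on the plus strand. Each of the remaining forms was found in 1 to 5 members.

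Nearly all core histone transcripts had lower values in the mutant. Values are RPKM, reads scaled to length and sequencing depth. Low values stepped as if about 210 nt were taken off each length, which raises the levels of short gene models. Hist1h4k (312 nt) had 526 RPKM in control from about 3030 estimated reads, and Hist1h4j (774 nt) 221 RPKM from about 7052. Levels of different genes, and sums over them, thus depend on model length. A difference is log2((mutant RPKM + 1) / (control RPKM + 1)), on which the difference of low genes comes out too small. Of the 60 members, 55 reached an RPKM of 1 in either genotype and entered the comparison, and 54 of these had a lower mutant value. The same filter left 16473 genes, of which 49.6% had a lower mutant value. The median difference was -0.66 over the 55 core histone genes and 0.005 over all 16473. Only Hist1h2ba (TH2B) had a higher mutant value. The differences were moderate: 36 members lay between -1 and -0.5, 12 between -0.5 and 0, and 6 were at least 2-fold lower. Of all genes, 4.35% were at least 2-fold lower and 4.4% at least 2-fold higher, and 0 members were 2-fold higher. Summed over the 60 members, the level was 15128 RPKM in control and 10137 RPKM in mutant, a ratio of 0.670. The order of the genes was nearly the same in both genotypes, with a Pearson r of 0.99 between their log2 levels across the 55 genes, which are not independent replicates. Hist1h2aj, Hist1h2ao, Hist1h2bq, Hist2h2aa2 and Hist2h3c2 stayed under 1 RPKM in both genotypes. In bulk RNA, fewer cells of a type and less RNA per cell cannot be told apart.

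**Figure D1:**
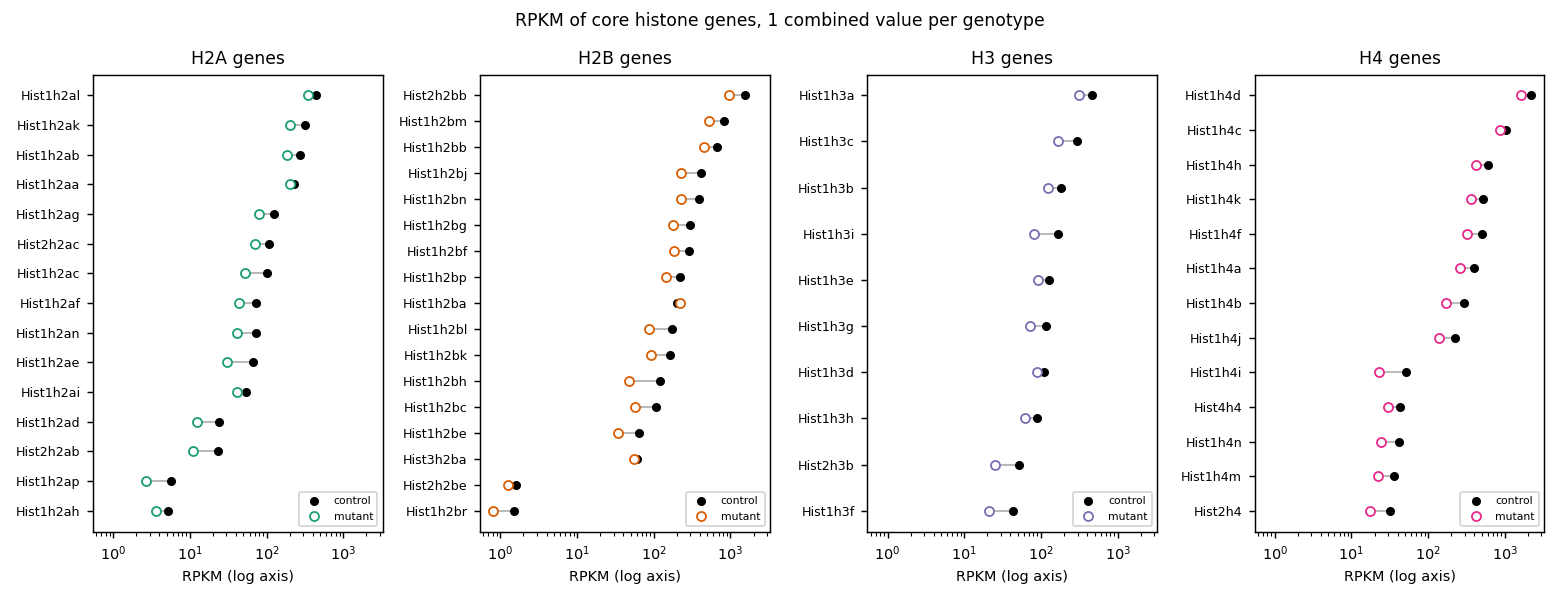
RPKM (log axis) of each core histone gene that reached 1 RPKM, in control and in mutant (1 combined value each, no error bars), arranged by class. The line between each pair runs to a lower mutant value for 54 of 55 genes, with Hist1h2ba as the exception.

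The size of the difference depends on the yardstick. The trend of the difference with transcript length and GC content was fitted over other protein-coding genes. It was read at the longest annotated transcript, for several members longer than the gene model measured in the table. Removing it brought the core histone median to -0.30, with 49 of 55 still below 0 and 1 at least 2-fold lower. Rescaling the mutant so that germ cell markers had a median difference of 0 multiplied every mutant value by 0.637. It took the core histone median to -1.29, with 46 members at least 2-fold lower. The shares of all genes below 0 or past 2-fold on these scales are not given here, so the counts cannot be set against them.

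The 6 members at least 2-fold lower came from all 4 classes. Hist1h2bh, an H2B gene on chromosome 13 from 23542970 to 23543357 (GRCm38, minus strand), had a control level of 119.7 RPKM and a mutant level of 47.8 RPKM, 2.50-fold lower (difference -1.31). These values correspond to about 1204 control reads (95% Poisson interval 1137 to 1274) and 488 mutant reads (446 to 533), so the gap is beyond counting error, the only error these intervals cover. With the length and GC trend removed Hist1h2bh was at -1.20, the 1 member then past 2-fold. The trend of -0.10 taken off came from an annotated transcript of 1679 nt, while the model measured in the table spans 388 nt. For Hist1h2bl, whose transcript and model are both 381 nt long, it was -0.39, so the value for Hist1h2bh depends on the length used. Hist1h4i, an H4 gene, was at 51.5 and 22.8 RPKM (2.25-fold lower), and Hist1h2ae, an H2A gene, at 66.3 and 30.4 RPKM (2.18-fold lower). Hist2h2ab on chromosome 3, another H2A gene, was at 23.1 and 10.9 RPKM (2.11-fold lower). Hist1h3i, which encodes H3.1, was at 166 and 81.6 RPKM (2.03-fold lower), and Hist1h2bl, an H2B gene, at 175 and 86.8 RPKM (2.02-fold lower). Hist1h2bl, Hist2h2ab (-1.01) and Hist1h3i (-1.02) lay just inside the boundary. Just outside it were the H3.2 genes Hist1h3f (43.4 and 21.3 RPKM) and Hist2h3b (51.0 and 25.1 RPKM), both at -0.99, and Hist1h2ac at -0.94. Hist1h2ap, a low H2A gene at 5.65 and 2.70 RPKM, was 2.09-fold lower in RPKM but at -0.85 on the log2 scale with 1 added. With a pseudocount of 0.1, Hist1h2ap, Hist1h3f and Hist2h3b were past 2-fold as well, which made 9 members.

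**Figure D2:**
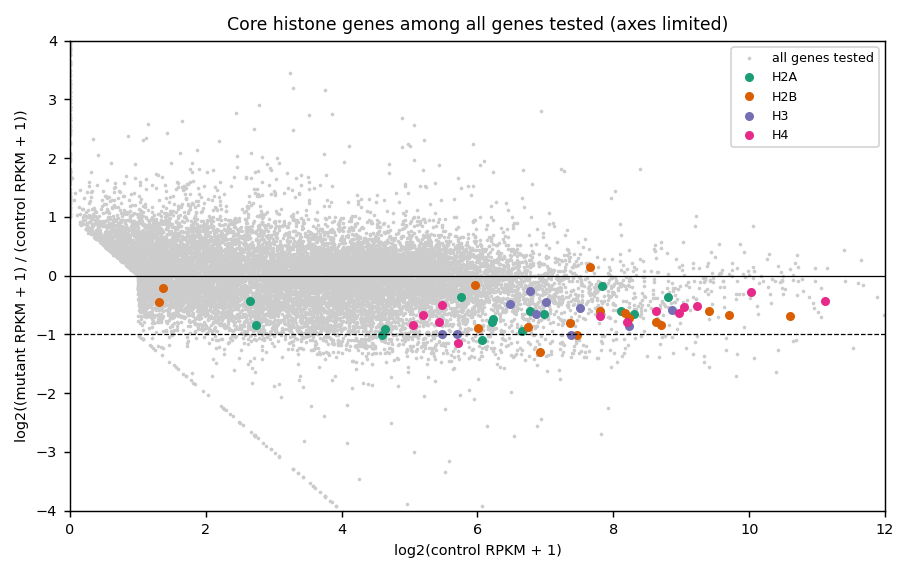
Difference between genotypes (vertical axis, log2) against control level (horizontal axis, log2 of RPKM + 1) for all 16473 genes in grey and the 55 core histone genes in colour by class; axes are limited and the dashed line marks a 2-fold lower value. The core histone genes form a band below 0 across the whole range of levels, centred at -0.66.

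H2A pairs with H2B in dimers that flank the inner H3 and H4 tetramer of the nucleosome. All 15 H2A genes that entered the comparison had lower mutant values (median -0.65), and the 18 members together had sums of 1920 RPKM (control) and 1316 RPKM (mutant; ratio 0.685). The highest was Hist1h2al, annotated as a pseudogene, at 445 and 343 RPKM in control and mutant (-0.37). Hist1h2ak was at 314 and 200 RPKM (-0.65), and Hist1h2ab at 276 and 182 RPKM (-0.60). These 3 genes held 53.9% of the H2A sum in control and 55.1% in mutant, a nearly equal part. The largest difference was that of Hist1h2ae, and the smallest that of the testis gene Hist1h2aa.

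All 18 H2A members share their exact start and end with another entry of the table, most often an entry named after a sequenced clone. Of 19 such entries, 11 were at 0 in both genotypes, 7 reached 1 RPKM, and 6 stood above the histone entry in control. Hist1h2ak shares its place with AL589651.3, at 2119 and 1298 RPKM. Hist1h2af, at 73.9 and 44.1 RPKM, shares its place with AC034285.3, at 1598 and 735 RPKM. Hist2h2ac, at 108 and 70.6 RPKM, is paired in the same way with AC125099.2, at 790 and 693 RPKM. All 7 measured entries were lower in the mutant, like the histone entries beside them, but not by the same amount. AC034285.3 was at -1.12 beside Hist1h2af at -0.73, and AC125099.2 at -0.19 beside Hist2h2ac at -0.61. The sources used here do not say how reads were divided between them, so the level and the difference of a single H2A gene are uncertain. With the 16 clone-named entries added, chosen after their values were seen, the H2A sum was 9552 RPKM (control) and 6909 RPKM (mutant), a ratio of 0.723. Without Hist1h2aa and the entry at its place the ratio was 0.619.

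H2B, the partner of H2A, had the lowest median of the classes at -0.69, with 16 of 17 measured genes lower in the mutant. The sum over 18 members was 5566 RPKM in control and 3492 RPKM in mutant (ratio 0.627). Hist2h2bb on chromosome 3 was the highest at 1549 and 957 RPKM (-0.69), followed by Hist1h2bm at 831 and 523 RPKM (-0.67) and Hist1h2bb at 676 and 446 RPKM (-0.60). They held 54.9% of the H2B sum in control and 55.1% in mutant. Hist2h2bb shares its start and end with the H3 gene Hist2h3b and with Gm20628 (32.0 and 20.7 RPKM), so its value too is uncertain. The difference was small in Hist3h2ba on chromosome 11, at 61.2 and 54.7 RPKM (-0.16), and in Hist2h2be, at 1.59 and 1.24 RPKM (-0.21).

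H3 and H4 form the inner tetramer of the nucleosome. All 10 measured H3 genes were lower, with a median of -0.62 and sums of 1645 RPKM in control and 1044 RPKM in mutant (ratio 0.635). Hist1h3a was the highest at 465 and 310 RPKM (-0.59), followed by Hist1h3c at 299 and 165 RPKM (-0.85) and Hist1h3b at 181 and 123 RPKM (-0.55). Hist1h3d had the smallest difference, at 109 and 89.9 RPKM (-0.27). The 4 genes of H3.1 and the 7 of H3.2, replication-dependent proteins that differ by a single residue, had close ratios: the sums were 834 and 527 RPKM for H3.1 (ratio 0.632) and 811 and 517 RPKM for H3.2 (ratio 0.638).

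All 13 H4 genes were measured and all had a lower mutant value (median -0.63). Over the core histone entries alone, H4 had the highest summed level, 5997 RPKM for control and 4285 RPKM for mutant. Its ratio of 0.714 was the highest of the 4 classes. With the clone-named entries added, the H2A sum was higher than that of H4, at 9552 RPKM (control) and 6909 RPKM (mutant). Hist1h4d, on chromosome 13 from 23581598 to 23581990, had the highest value of the core histone entries, at 2210 and 1641 RPKM (-0.43). The clone-named entry at the place of Hist1h2aa, AL606464.1, was higher, at 3115 and 2863 RPKM. Hist1h4c was at 1046 and 860 RPKM (-0.28), the smallest difference of the class, and Hist1h4h at 602 and 419 RPKM (-0.52). The 3 held 64.3% of the H4 sum in control and 68.1% in mutant, while Hist1h4i, with the largest difference, held 0.858% and 0.533%. The differences between the classes are small beside the range within each. Leaving out the highest member of each class moved the H4 ratio to 0.698. H2A was above H4 with the clone-named entries added (0.723), and likewise without the trend of length and GC content (0.889 against 0.886). That trend was read at the longest annotated transcript. For Hist1h4d this was 1138 nt (trend -0.23) beside a measured model of 393 nt, and for Hist1h4c 820 nt (-0.30) beside 395 nt. The order of the ratios thus depends on the processing and on the length used, and it has no replicate check.

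The testis genes had the highest mutant to control ratios of their classes. Hist1h2ba (TH2B), on chromosome 13 from 23933773 to 23934156 (minus strand), had 201 RPKM as its control and 222 RPKM as its mutant level (0.14), or about 1980 reads (95% Poisson interval 1894 to 2069) and 2214 reads (2123 to 2308). It made up 3.62% of the H2B sum in control and 6.36% in mutant. Hist1h2aa (TH2A), next to it on the plus strand, was at 227 and 202 RPKM (-0.17). This was 11.8% and 15.4% of the H2A sum over the named members, which leaves out the clone-named entries. The entry at the same place as Hist1h2aa, AL606464.1, was much higher, at 3115 and 2863 RPKM, with a difference of -0.12. Without the testis gene the H2B ratio was 0.610 and the H2A ratio 0.658. After rescaling to the germ cell markers Hist1h2ba was at -0.51, and without the trend of length and GC content Hist1h2aa was at 0.21. The direction of either gene thus depends on the scale, while both lay above the core histone median of -0.66.

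Hist1h2ba and Hist1h2aa are transcribed away from each other. Their models in the table, which cover the coding sequence only, start 306 nt apart, and 220 bases of their promoter windows coincide. The promoters of Hist1h2ba, of Hist1h2bh (the member with the largest difference) and of Hist1h4d (the member whose own entry was highest) are shown to compare the genes at the extremes. Each window runs from 250 bases before to 50 after the RefSeq start (GRCm38.p6), in the direction of transcription, with matches to the TATA box letters TATAAA, to the letters CCAAT and to the octamer ATTTGCAT on either strand in capitals. The start used for Hist1h2ba is the start of its coding sequence, so its window is not aligned with the others. Its TATAAA match lies at -94, and that of Hist1h4d at -32. The windows are chr13:23934107-23934406 (minus strand) for Hist1h2ba, chr13:23543395-23543694 (minus strand) for Hist1h2bh and chr13:23581318-23581617 (plus strand) for Hist1h4d.
Hist1h2ba: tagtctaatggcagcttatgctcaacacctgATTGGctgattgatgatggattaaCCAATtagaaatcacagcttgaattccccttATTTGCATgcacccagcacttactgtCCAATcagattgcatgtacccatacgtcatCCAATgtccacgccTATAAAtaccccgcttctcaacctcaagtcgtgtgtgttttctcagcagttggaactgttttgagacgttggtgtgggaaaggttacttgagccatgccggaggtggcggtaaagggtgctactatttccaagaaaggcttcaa
Hist1h2bh: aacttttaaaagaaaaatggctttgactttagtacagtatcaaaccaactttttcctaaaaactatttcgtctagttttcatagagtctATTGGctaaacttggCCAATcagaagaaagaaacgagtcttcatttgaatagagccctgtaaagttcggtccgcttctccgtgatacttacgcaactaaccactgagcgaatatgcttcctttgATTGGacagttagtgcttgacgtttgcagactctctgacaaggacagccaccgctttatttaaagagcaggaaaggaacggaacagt
Hist1h4d: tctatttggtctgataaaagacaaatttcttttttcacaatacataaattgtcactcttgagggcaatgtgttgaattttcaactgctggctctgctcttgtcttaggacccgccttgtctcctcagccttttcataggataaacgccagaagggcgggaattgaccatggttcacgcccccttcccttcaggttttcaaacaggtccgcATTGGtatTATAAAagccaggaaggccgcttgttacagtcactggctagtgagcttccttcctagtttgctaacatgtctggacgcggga
The Hist1h2ba window holds all 3 motifs, the octamer ATTTGCAT among them. The Hist1h2bh window holds CCAAT matches and neither of the other motifs, and the Hist1h4d window holds 1 TATAAA and 1 CCAAT match.

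Promoter windows were found in RefSeq for 53 members, and the 52 with a single window were searched. CCAAT, the core of the binding site of the factor NF-Y, was in all 16 H2A, all 15 H2B and all 9 H3 windows but in 3 of 12 H4 windows, against 37.4% of all 32851 windows. TATAAA, the letters of a TATA box, was in 10 H2A, 8 H2B, 4 H3 and 8 H4 windows, against 13.6% of all windows. ATTTGCAT, the octamer bound by POU factors and known from H2B promoters, was in 6 H2A and 6 H2B windows and in 0 H3 or H4 windows, against 1.74% of all. Windows of divergent pairs overlap, so the H2A and H2B counts are not independent. H2B genes with it had a median of -0.68 and those without it -0.71. A match describes letters in a window and is not evidence of binding.

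Partners transcribed away from a shared promoter region differed in how much lower they were. There were 13 such H2A and H2B pairs, and in 11 both genes were measured. The starts lay 236 to 306 nt apart, counted between model starts, some of which are starts of the coding sequence. Hist1h2ai (53.3 and 41.2 RPKM, -0.36) lay beside Hist1h2bl, which was past 2-fold. Hist1h2ae (-1.10) lay beside Hist1h2bg at 298 and 181 RPKM (-0.72). The median gap between partners was 0.31 on the log2 scale. Pearson's r between the partners' differences was 0.34 over 11 pairs, and -0.22 without the testis pair, a description of genes from the same libraries. The H2A entry had the lower level in 8 pairs in control and 9 in mutant, which counts only the reads assigned to the named entry and not those of the clone-named one. The H2A differences of the pairs rest on the named entry in the same way.

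Lower values were found in each chromosomal cluster. Members on chromosome 13 fall into 3 blocks separated by over 500000 bases, and others lie on chromosomes 3, 6 and 11. The first block on chromosome 13, with 23 members from Hist1h2bl to Hist1h2bj, had a median of -0.68 and a summed ratio of 0.611. The second, with 26 members from Hist1h4h to Hist1h2aa, had a median of -0.63 and a ratio of 0.701, and it holds the testis pair and the most abundant H4 genes. The 8 members on chromosome 3 had a median of -0.77 over the 6 measured and a ratio of 0.613. Some members inside these groups had small differences, such as Hist2h2be (-0.21) and Hist1h3d (-0.27). Genes outside these groups had smaller differences than the group medians. Hist4h4 on chromosome 6 was at 43.4 and 30.4 RPKM (-0.50), Hist1h2al, alone in the third block, at -0.37, and Hist3h2ba at -0.16. Each of these is 1 gene, and 2 of them, Hist1h2al and Hist3h2ba, were above 0 with the length and GC trend removed (0.014 and 0.29). Hist4h4 was then at -0.49, below the medians of the first block (-0.35), the second block (-0.25) and chromosome 3 (-0.46), so the smaller difference of Hist4h4 was not seen on that scale.

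**Figure D3:**
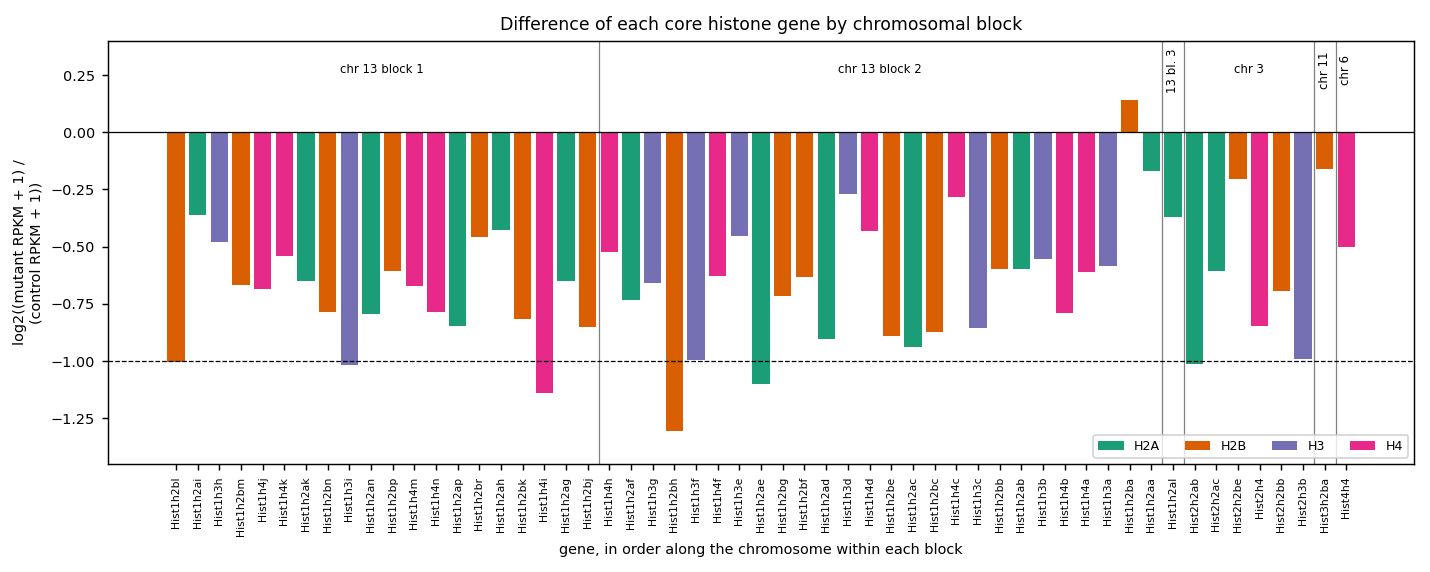
Difference between genotypes (vertical axis, log2) for each of the 55 measured core histone genes in order along the chromosome, with blocks separated by vertical lines and bars coloured by class; the dashed line marks 2-fold lower. Bars point down in every block apart from Hist1h2ba. The genes alone in their block lie at -0.50, -0.37 and -0.16, and some genes inside the larger blocks have short bars too, such as Hist2h2be (-0.21) and Hist1h3d (-0.27).

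Abundant members were lower as well as weakly expressed ones. The 18 members with the lowest control levels had a median of -0.82, the middle 18 of -0.65 and the highest 19 of -0.63, and 0 of the highest 19 were 2-fold lower. The 11 measured members whose locus in the table spans over 1 kb had a median of -0.79, and the 44 shorter ones -0.65. Stem-loop forms gave medians of -0.66 (16 measured genes with the form common to H2A, H2B and H3), -0.52 (7 H4 genes with the main H4 form) and -0.81 (5 genes with the H2B and H3 form). The pairs of H4 genes with the remaining forms had medians of -0.99 (Hist1h4i and Hist2h4) and -0.74 (Hist1h4b and Hist1h4j). Groups this small, without replicates, carry no order between the forms.

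Core histone genes are near-identical copies, so a read may fit several of them. In 26 members at least 50% of the 50-base stretches of the longest annotated transcript occur in no annotated transcript of another gene. These 26 had a median of -0.62 with 25 below 0 and 3 at least 2-fold lower (Hist1h2bh, Hist1h4i and Hist1h2ae), and the 29 less distinct measured members had a median of -0.67. The 26 include 3 H2A genes, Hist1h2aa, Hist1h2ac and Hist1h2ae, each of which shares its place with another entry. In each of the 26, up to 50% of the stretches still occur elsewhere. For some of them the longest transcript exceeds the model measured, as in Hist1h2bh (1679 and 388 nt), Hist1h2ae (704 and 460 nt) and Hist1h2ac (2482 and 476 nt). How much of those models is unique was not computed, so the measured part may be less distinct. Leaving out pseudogenes, members that share a locus and models over 1 kb left 30 genes, 29 of them below 0, with a median of -0.65.

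Short transcripts in general were lower in the mutant. The median transcript length was 508 nt for the core histone genes and 3341 nt for protein-coding genes, and their median GC content was 59.1% and 49.7%. The 146 other protein-coding genes with a transcript of 300 to 650 nt had a median of -0.39, with 103 of them below 0, 23 at least 2-fold lower and a summed ratio of 0.764. Over all 12184 protein-coding genes the median was -0.06, with 55.7% below 0 and 4.06% at least 2-fold lower. Core histones (54 of 55 below 0, ratio 0.670) lay below other short genes in median and in summed ratio. The share at least 2-fold lower was not larger in core histones, at 6 of 55 beside 23 of 146. The part that length and GC content have in the lower values was not tested beyond the removal of the trend given above.

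**Figure D4:**
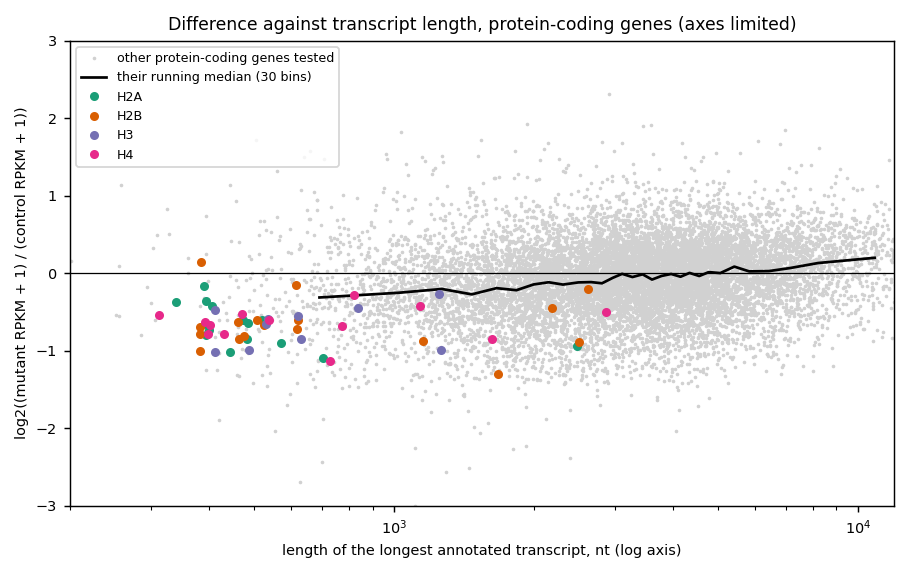
Difference between genotypes (vertical axis, log2) against length of the longest annotated transcript (log axis, nt) for protein-coding genes in grey, with their running median as a black line, and the core histone genes in colour by class; axes are limited. The running median lies below 0 for short transcripts and above 0 for the longest, and most core histone genes lie below it.

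Genes that work with the core histones were read from lists of their functions. Of 7 measured linker histone genes, which encode the H1 proteins that bind DNA between nucleosomes, 6 were lower, with a median of -0.50 and a sum of 2955 RPKM in control and 2202 RPKM in mutant. Hist1h1b was at 226 and 101 RPKM (-1.15), Hist1h1e at 449 and 249 RPKM (-0.85), and Hist1h1a at 1423 and 1225 RPKM (-0.21). Hist1h1t, the testis H1 gene, had a higher mutant value (18.7 and 33.9 RPKM, 0.82), and it was named after its values were seen. All 9 replication-independent variants, which are made outside S phase as well, were lower, with a smaller median of -0.32 and 0 at least 2-fold lower. The highest of them were H3f3b, a gene of H3.3, at 709 and 654 RPKM, and H2afz, the gene of H2A.Z, at 698 and 497 RPKM.

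Replication genes were lower too, while the listed histone mRNA factors were not lower as a group. Of 44 S phase and DNA replication genes 39 were lower, with a median of -0.33 and 0 at least 2-fold lower. Pcna, whose protein clamps the polymerase to DNA, was at 164 and 109 RPKM, and Pold3, a polymerase delta subunit, at 165 and 101 RPKM. Of 25 histone mRNA transcription and processing factors 12 were lower and 13 higher, with a median of 0.02. This list is mixed, and its values ran from -0.67 (E2f1) to 0.75 (Ncbp1). Slbp, the highest, was at 139 and 119 RPKM (-0.22), and Fip1l1, a polyadenylation factor subunit, at 67.3 and 92.4 RPKM (0.45). Npat, the coactivator that switches on these genes in S phase, was at 20.5 and 27.2 RPKM (0.39). Lsm10, of the U7 particle that cuts the 3′ end, was at 31.7 and 23.4 RPKM (-0.42), and its partner Lsm11 at 5.38 and 6.11 RPKM (0.16). Casp8ap2 (FLASH), needed for the same cut, was at 28.3 and 26.7 RPKM (-0.08). The 21 histone chaperones, which carry histones to DNA, had a median of 0.03 with 10 lower, and none was 2-fold different. The highest were Npm1, a nucleolar chaperone, at 753 and 1094 RPKM (0.54), Rbbp7, which binds H4, at 199 and 164 RPKM (-0.28), and Nasp, a carrier of H3 and H4, at 164 and 172 RPKM (0.07).

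**Figure D5:**
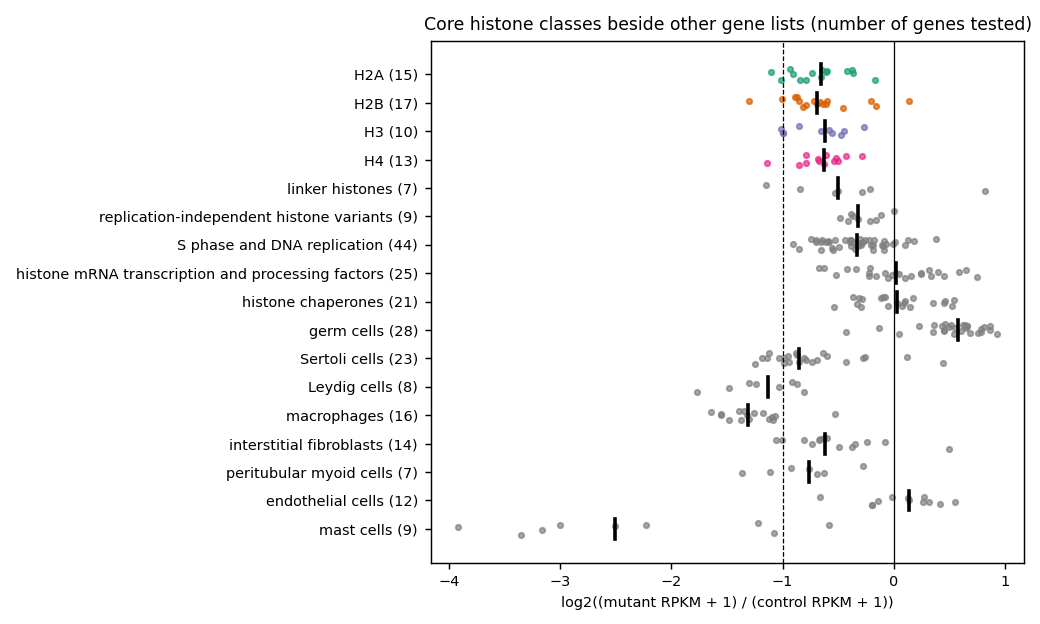
Difference between genotypes (log2) of each measured gene in the 4 core histone classes and in the other gene lists, each point 1 gene. Core histone classes are centred between -0.69 and -0.62, replication genes at -0.33, processing factors and chaperones near 0, and germ cell markers at 0.58.

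Markers of testicular cell types differed in the same values. Germ cell markers were higher in the mutant for 26 of 28 genes (median 0.58), with a summed level of 1374 RPKM in control and 1955 RPKM in mutant; Dazl was at 274 and 353 RPKM. All 16 macrophage markers were lower (sum 5378 and 2005 RPKM), as were 8 of 8 Leydig cell markers (605 and 232 RPKM), 9 of 9 mast cell markers (236 and 22.8 RPKM) and 7 of 7 peritubular myoid markers (176 and 78.9 RPKM). Sertoli cell markers were lower for 21 of 23 genes (1310 and 642 RPKM) and fibroblast markers for 13 of 14 (247 and 155 RPKM). Of 12 endothelial markers 5 were lower (47.3 and 49.5 RPKM). The mast cell marker Fcer1a was at 0 in the mutant and under 1 RPKM in control. Thy1, the gene of the selected protein, was at 7.11 and 8.61 RPKM, while the median macrophage marker was at 253 and 97.8 RPKM and the median Sertoli marker at 13.1 and 7.71 RPKM. Stra8, a retinoic acid target that checks the mutant label, was at 45.2 and 8.60 RPKM. The part of other cell types in the lower core histone values was not tested.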

How the data were processed

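Per the file headers, the authors deposited 1 table of RPKM with 1 column for both control and 1 for both mutant libraries. The submitters' processing notes name TopHat2 2.0.11 and GRCm38; how reads were counted, by which annotation, and how libraries were combined is not stated in the sources used here. The planned test by library could not be run, so a 2-fold rule on log2(RPKM + 1) was used, for genes with RPKM of 1 or more in either genotype. Low values stepped in whole reads (89.4% of 884 control and 95.3% of 900 mutant values within 0.1 read), which gives about 56.5 M and 57.3 M reads (assuming RPKM without extra scaling) and, for 44 measured genes with models up to 1 kb, medians of 2230 and 1944 reads. The steps fitted lengths shortened by 210 nt in both columns, and reads were estimated with the shortened length. A floor of 3 reads in a 400-nt model is then 0.279 RPKM in control and 0.276 RPKM in mutant.

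Biotype, length, GC content, stem-loops and shared 50-mers came from GENCODE M21 (GRCm38), with exact matches found through BLAST 2.17.0, and promoters from RefSeq. Entries pooling several symbols were left out. Values were computed with pandas 2.3.3 and numpy 2.4.6, and the calculations were tested on simulated data. Named genes were, in each class, the 3 highest in control, the largest and smallest differences, all past 2-fold, all higher in mutant and the testis genes; of other lists, highest members, those past 2-fold and 5 processing factors. The marker lists depart from this rule and are given as counts and sums. Alternatives were another pseudocount, other filters, quantile normalization, rescaling to germ cell markers, removal of the length and GC trend, and subsets of members. Members and lists were chosen with earlier results of these data known.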

Additional observations from a re-analysis of the deposited data

How the results depend on the processing

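The values reported are a core histone median of -0.66 with 6 genes at least 2-fold lower and 54 below 0, and summed ratios of 0.685 (H2A), 0.627 (H2B), 0.635 (H3) and 0.714 (H4). Requiring an RPKM of 5 or adding entries that pool several symbols moved neither the median nor a ratio beyond counting error. The median was -0.67, with 9 genes at least 2-fold lower, with a pseudocount of 0.1 and -0.64 without a filter. Quantile normalization gave -0.56, 3 genes at least 2-fold lower and ratios of 0.756, 0.686, 0.698 and 0.799 in the same order of classes. Rescaling to the germ cell markers multiplied the mutant values of all genes by 0.637, and the share of all genes then past 2-fold is not given. It gave -1.29, 46 genes and ratios of 0.437, 0.400, 0.405 and 0.455, with Hist1h2ba at -0.51. Removing the length and GC trend gave -0.30, 1 gene and ratios of 0.889, 0.816, 0.818 and 0.886; Hist3h2ba, alone on chromosome 11, turned to 0.29, Hist1h2al, alone in its block, to 0.014, Hist1h2ai to 0.023, Hist1h4c to 0.022 and Hist1h2aa to 0.21. Genes with at least 50% unique 50-mers had a median of -0.62, with 3 genes at least 2-fold lower, 25 below 0 and ratios of 0.722 (H2A), 0.663 (H2B) and 0.727 (H4); the smaller counts follow from the 26 genes left.

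The remaining alternatives were chosen after seeing the data. Without pseudogenes, shared loci and models over 1 kb, which left 0 H2A genes, the median was -0.65 with 29 below 0. Taking out the fragment length term gave an H4 ratio of 0.703. Leaving out the highest member gave 0.659 (H2A), 0.623 (H3) and 0.698 (H4), and adding clone-named entries gave 0.723 for H2A. The causes of these shifts were not tested. No paired analysis was possible because the columns combine both libraries of a genotype, and leaving out each library could not be run for the same reason. Whether depth or the assignment of reads between near-identical genes sets the values of the 5 genes under 1 RPKM was not tested.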

Other observations

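Entries outside the rule that hold a core histone symbol went the same way. The entry that pools Hist3h2a with Trim17 had 87.3 RPKM for control and 70.1 RPKM for mutant (-0.31), and the one that pools Hist2h2aa1 with Hist2h3c1 at 1.08 and 0.635 RPKM. The pseudogene Hist3h2bb-ps, between Hist3h2ba and the pooled entry on chromosome 11, was at 18.9 and 9.94 RPKM (-0.86), against -0.16 for Hist3h2ba itself.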
